A study of Mus musculus with 6 samples.

Results

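The genes of the proteasome were examined for RUNX1 binding at their ends in mouse granulosa cells, the somatic cells that surround and support the oocyte in the ovarian follicle. The members were all protein-coding genes of the RefSeq table whose symbol starts with Psma, Psmb, Psmc, Psmd, Psme, Psmf or Psmg, which gave 51 of 21900 protein-coding genes. A member was counted as bound in a library when the summit of a RUNX1 peak lay within 1 kb of either of its ends. The rule for members reads symbols and no measured value, though it was set with earlier results of these data known. The symbols also take in Psmc3ip, whose product (HOP2) acts in meiotic recombination, and Psme3ip1, whose product binds the activator subunit PSME3. These are not proteasome subunits. They are counted among the 51 and in the motif shares, and their own values are described apart from the rest.

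Binding was measured by chromatin immunoprecipitation with a RUNX1 antibody and sequencing (ChIP-seq), with 2 libraries of pre-ovulatory granulosa cells labelled 0 h after hCG and 2 libraries of peri-ovulatory granulosa cells labelled 6 h after hCG. The series also has 1 pooled input per time point. All samples came from CBA x C57BL/6 F1 mice aged 21 days. The treatment text, which is the same for every sample, gives 5 IU of equine chorionic gonadotropin (eCG) to all mice and 5 IU of human chorionic gonadotropin (hCG) 46 h later, with collection 6 h after hCG. Only the titles and the time-point tag set the 0 h libraries apart. eCG drives follicle growth, and hCG acts through the receptor of luteinising hormone and triggers ovulation. How many mice were pooled per library is not given in the sources used here, and the 2 libraries of a group are not said to come from separate animals, so the spread between them may be technical. Peak lists hold no RNA, so the labelled cell type was not checked against expression markers.

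The proteasome is the large protease that degrades ubiquitin-tagged proteins in the cytoplasm and nucleus. Its barrel, the 20S core, is built of rings of alpha subunits (Psma), which form the gate, and beta subunits (Psmb), some of which carry the proteolytic sites. The 19S cap recognises, deubiquitinates and unfolds the substrate with a ring of ATPases (Psmc) and non-ATPase subunits (Psmd), and activator rings (Psme) can take its place. RUNX1 is a DNA-binding transcription factor that is induced in granulosa cells by the ovulatory surge. Genes of the constitutive proteasome are expressed in nearly all cells.

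The 4 peak lists were of very unequal length, with 948 and 3135 peaks at 0 h and 18761 and 28671 at 6 h. Solving each peak's fold and p-value for its reads gave a lowest background of 2.77 and 2.65 reads in 0 h replicates 1 and 2, and of 2.76 and 2.13 in 6 h replicates 1 and 2. The weakest peaks called at that background had pileups of 20, 19, 20 and 17 reads in the same order. A gene without a peak is therefore a gene at which no pileup passed such a limit, not a gene shown to be free of RUNX1.

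The promoter sequences that follow come from chosen genes. They are the 250 bases before a transcript start, 5′ to 3′ on the strand of the gene, from the RefSeq promoter table on GRCm38.p6. Summits that lie after that start fall outside them. Capitals mark the RUNX cores TGTGGT and TGCGGT and the ETS core CCGGAAG, on either strand, where they lie wholly in the printed bases. Psmb9 is shown because it was called in all 4 libraries, and Psmd13 because it was called at both time points over a RUNX core. Psmc2 and Psme4 are starts called only in the 6 h libraries, and both hold an ETS core. The choice was made by hand and is not a random sample. Of the 43 members with a promoter entry, 15 had an ETS core and 10 a RUNX core in the window searched below. Both annotated starts of Psma6 are shown because no library had a summit within 1 kb of the outer one and 3 libraries had one near the inner one. Psmc5 stands for the starts without a peak in any library.

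Psmb9, minus strand, chr17:34187331-34187580: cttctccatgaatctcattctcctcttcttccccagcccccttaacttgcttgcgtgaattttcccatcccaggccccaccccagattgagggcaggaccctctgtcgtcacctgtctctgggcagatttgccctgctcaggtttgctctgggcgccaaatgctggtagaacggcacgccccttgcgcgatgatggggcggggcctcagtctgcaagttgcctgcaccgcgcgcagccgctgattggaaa
Psmd13, plus strand, chr7:140882144-140882393: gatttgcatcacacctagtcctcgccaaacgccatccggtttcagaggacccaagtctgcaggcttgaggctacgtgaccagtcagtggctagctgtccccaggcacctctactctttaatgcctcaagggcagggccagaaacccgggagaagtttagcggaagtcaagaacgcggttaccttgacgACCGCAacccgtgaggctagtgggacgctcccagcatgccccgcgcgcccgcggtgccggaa
Psmc2, plus strand, chr5:21785025-21785274: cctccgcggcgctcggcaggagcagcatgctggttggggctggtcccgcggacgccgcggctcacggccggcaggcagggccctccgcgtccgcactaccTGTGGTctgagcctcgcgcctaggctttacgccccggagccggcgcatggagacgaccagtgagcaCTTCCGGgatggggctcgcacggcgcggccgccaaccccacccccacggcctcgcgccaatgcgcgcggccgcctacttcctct
Psme4, plus strand, chr11:30771525-30771774: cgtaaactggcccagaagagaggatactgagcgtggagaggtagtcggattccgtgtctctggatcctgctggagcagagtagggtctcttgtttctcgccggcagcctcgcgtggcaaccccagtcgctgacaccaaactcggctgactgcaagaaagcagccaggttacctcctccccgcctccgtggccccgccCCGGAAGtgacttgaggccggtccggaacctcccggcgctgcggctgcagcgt
Psma6 outer start, plus strand, chr12:55383972-55384221: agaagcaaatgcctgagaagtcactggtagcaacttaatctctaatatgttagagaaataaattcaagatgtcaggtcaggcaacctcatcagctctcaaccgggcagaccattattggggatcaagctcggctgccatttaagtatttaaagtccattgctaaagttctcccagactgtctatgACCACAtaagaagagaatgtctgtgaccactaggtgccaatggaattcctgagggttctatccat
Psma6 inner start, plus strand, chr12:55398575-55398824: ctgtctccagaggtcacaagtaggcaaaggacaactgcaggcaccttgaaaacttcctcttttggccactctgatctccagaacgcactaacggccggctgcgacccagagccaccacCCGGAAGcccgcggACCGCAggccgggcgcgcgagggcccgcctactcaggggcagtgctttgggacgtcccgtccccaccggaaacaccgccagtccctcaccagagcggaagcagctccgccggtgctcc
Psmc5, plus strand, chr11:106255935-106256184: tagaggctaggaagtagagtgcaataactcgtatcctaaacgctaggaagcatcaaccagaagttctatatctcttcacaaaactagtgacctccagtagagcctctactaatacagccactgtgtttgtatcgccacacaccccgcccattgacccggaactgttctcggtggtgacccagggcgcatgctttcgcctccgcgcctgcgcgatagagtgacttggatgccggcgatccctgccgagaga

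Few proteasome genes were bound before hCG and most were bound 6 h after it. In 0 h replicate 1, 2 of the 51 genes had a peak, or 3.92% (exact Clopper-Pearson 95% CI 0.478 to 13.5), against 1.58% of all protein-coding genes. In 0 h replicate 2, 6 of the 51 had a peak, or 11.8% (95% CI 4.44 to 23.9), against 8.04%. In 6 h replicate 1, 34 of the 51 had a peak, or 66.7% (95% CI 52.1 to 79.2), against 38.1%. In 6 h replicate 2, 41 of the 51 had a peak, or 80.4% (95% CI 66.9 to 90.2), against 45.4%. The 6 h shares of proteasome genes lay above the share of all genes in both libraries, and the 0 h intervals include it. These intervals cover counting error only.

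The mean share rose from 7.84% ± 5.55 (SD, n = 2) at 0 h to 73.5% ± 9.71 (SD, n = 2) at 6 h, a difference of 65.7 percentage points (exact permutation test over libraries, two-sided, p = 0.333). This is the smallest p that 2 libraries against 2 can give, so the test cannot reach the usual threshold whatever the data. Other protein-coding genes went from 4.80% to 41.7%. Set against them within each library, the proteasome genes were 2.35 and 3.74 percentage points higher at 0 h and 28.6 and 35.1 points higher at 6 h. With only gene ends that have no other protein-coding end within 1 kb, these differences were 1.09 and −1.36 points at 0 h, where the direction turned in replicate 2, and 20.2 and 29.3 points at 6 h. With all ends, the change from 0 h to 6 h in this difference was 28.8 points, and the groups did not overlap (exact permutation test, two-sided, p = 0.333).

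The rise was not seen in lists of equal length. With only the 948 peaks of lowest p-value kept in each library, 2 and 3 proteasome genes were bound at 0 h and 2 and 0 at 6 h. Of other genes, 1.57% and 2.05% were bound at 0 h and 2.10% and 1.37% at 6 h in these lists. The change in the mean share was −2.94 points (exact permutation test, p = 0.667). The members in these equal lists were Psmb9 and Psmd3 in both 0 h libraries, Psmd13 in 1 of them, and Psmb9 and Psmd7 in 1 of the 6 h libraries. With a −log10 q of at least 20 the excess over other genes at 6 h against 0 h was 13.7 points in place of 28.8.

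**Figure D1:**
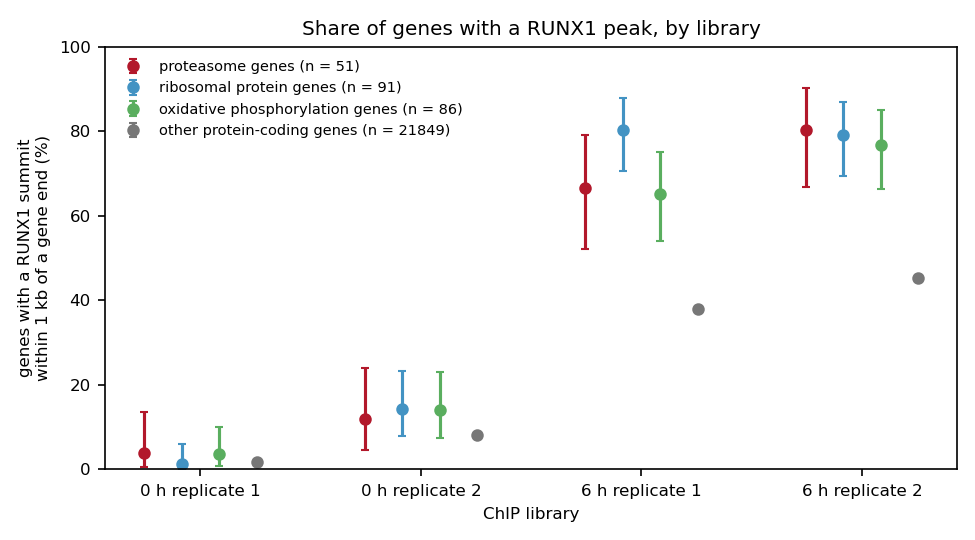
Percent of genes (y axis) with a RUNX1 summit within 1 kb of a gene end in each of the 4 ChIP libraries (x axis), for proteasome genes, ribosomal protein genes, nuclear oxidative phosphorylation genes and other protein-coding genes. Points are shares and bars are exact 95% confidence intervals, which cover counting error only. Proteasome genes were at 66.7% and 80.4% in the 6 h libraries, above other genes and beside the other housekeeping families.

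Other housekeeping families were bound about as often at 6 h. Of 91 ribosomal protein genes, 80.2% and 79.1% were bound in 6 h replicates 1 and 2, and of 86 nuclear oxidative phosphorylation genes 65.1% and 76.7%. At 0 h the ribosomal shares were 1.10% and 14.3% and the oxidative phosphorylation shares 3.49% and 14.0%. The difference between proteasome and ribosomal genes was 2.82 and −2.52 points at 0 h and −13.6 and 1.27 points at 6 h, with no fixed sign within either time point (exact permutation test of the change, two-sided, p = 0.667). Against the oxidative phosphorylation genes it was 0.433 and −2.19 points at 0 h and 1.55 and 3.65 points at 6 h (exact permutation test, p = 0.333). In each library the 95% intervals of the 3 families overlapped.

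Most members called at 6 h were called in both libraries. Both 6 h libraries had a peak at 32 of the 51 genes, or 62.7% (95% CI 48.1 to 75.9), against 37.3% of all protein-coding genes. Both 0 h libraries had a peak at 2 of them, or 3.92%, against 1.49%. The 6 members called in either 0 h library were 11.8% of the 51, against 8.12% of all genes, and each was also called in at least 1 library at 6 h. In either 6 h library 43 members were called, or 84.3%, against 46.2%. Of these 43, 32 were called in both, against 8128 of 10076 other protein-coding genes, a larger part. Of the 51, 27 were called in both 6 h libraries and in neither 0 h library, or 52.9% against 29.3% of all genes, and 8 were called in no library, or 15.7% against 53.7%. Of ribosomal protein and oxidative phosphorylation genes, 75.8% and 64.0% were called in both 6 h libraries. In both 6 h and neither 0 h library 62.6% and 48.8% of them were called, and 16.5% and 22.1% in no library.

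**Figure D2:**
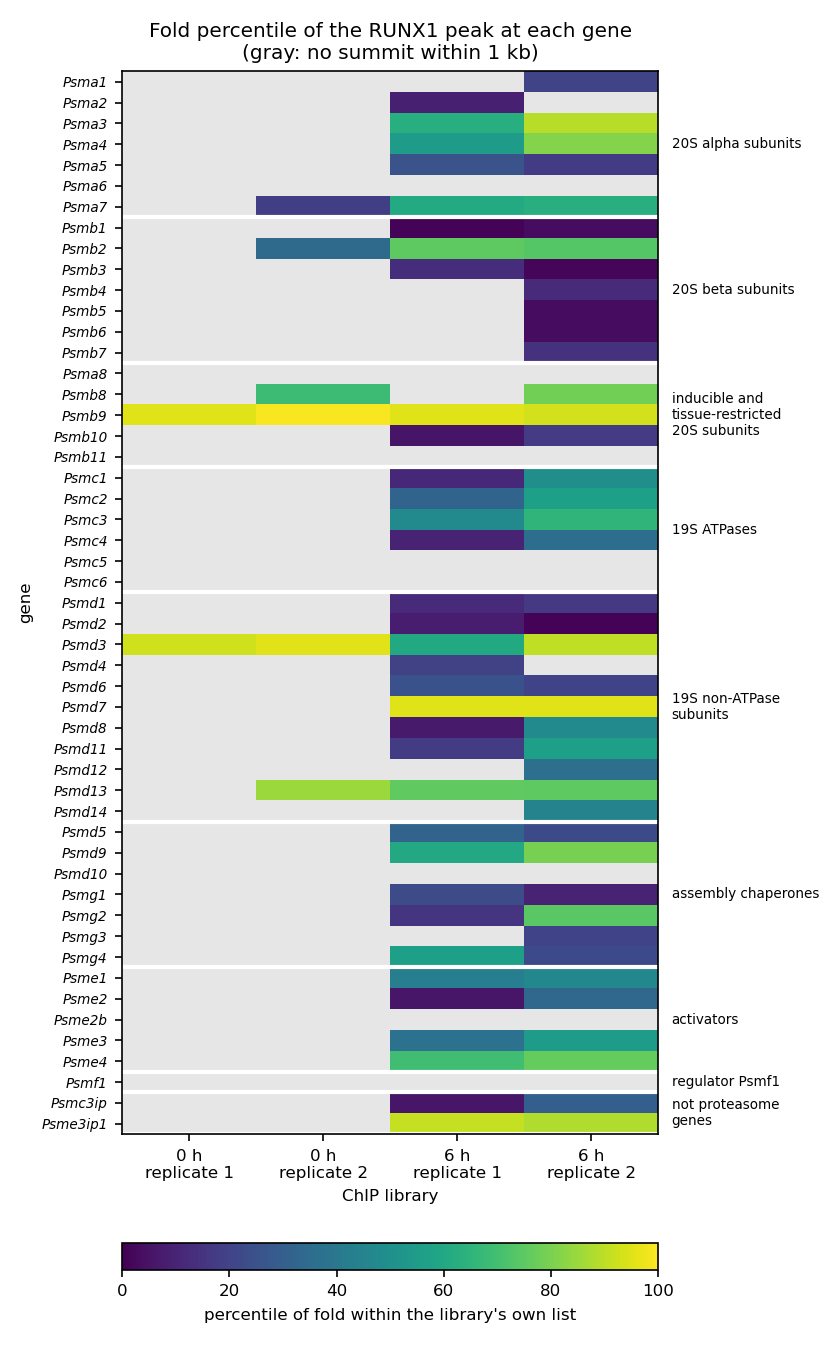
Percentile of the fold enrichment of the highest-fold RUNX1 peak within 1 kb of an end of each of the 51 genes (rows, by role), within the list of each library (columns). Gray means no summit within 1 kb, and percentiles are ranks within a library, not comparable as levels between libraries. Only Psmb9 and Psmd3 are colored in all 4 columns.

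The counts of the role groups that follow can be read against the 37.3% of all protein-coding genes called in both 6 h libraries and the 8.12% called in either 0 h library. Among the alpha subunits of the 20S core, 4 of 7 were called in both 6 h libraries and 1 at 0 h. Psma7 was called at 0 h in replicate 2 alone, with a fold enrichment over local background of 5.83. At 6 h its fold was 9.81 and 12.9 in replicates 1 and 2, at the 61.0th and 63.1st percentiles of the lists. Its 6 h peaks were 1620 and 1643 bp wide and also lay within 1 kb of an end of Ss18l1, so they belong to both genes alike. Psma4 had a fold of 9.14 and 18.3 at 6 h and shared its peak with ends of Hykk and AY074887. Psma5 lay low in both 6 h lists, at the 25.7th and 17.5th percentiles. Psma1 was called in 6 h replicate 2 only and Psma2 in 6 h replicate 1 only, the latter beside Mrpl32.

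Psma3 and Psma6 had peaks at transcript starts that lie inside the annotated gene. The peak that counts for Psma3 lay 670 and 644 bp from the finish of the gene, inside it, with a fold of 10.1 and 23.6. The RefSeq promoter table places a transcript start of Psma3 5340 bp inside the gene, and the 6 h libraries had summits 134 and 129 bp from it, with a fold of 14.8 and 16.7. Psma6 had no summit within 1 kb of an end in any library. At its inner transcript start, 14603 bp inside the gene, 0 h replicate 2 had a summit 124 bp away with a fold of 6.10, and 6 h replicates 1 and 2 had summits 111 and 120 bp away with a fold of 11.0 and 20.7. The printed bases of both starts hold a RUNX core, and those of the inner start also an ETS core, while the outer start had no summit within 1 kb. These genes were singled out after their values were seen. Counting any transcript start of the table beside the gene ends raised the members called in both 6 h libraries from 32 to 34, with the same rule giving 40.6% of other genes.

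All 7 constitutive beta subunits were called in 6 h replicate 2 but only 3 in replicate 1, and the median over those 3 of the mean 6 h percentile was 7.31. Psmb1 reached only 3.77 and 5.24 at 6 h, at the 1.02nd and 3.30th percentiles. The highest-fold peaks of Psmb3 in the 6 h replicates had summits 708 bp apart and did not overlap. That of replicate 2 lay 123 bp from the start, with a fold of 4.75, and replicate 1 had a further, weaker peak 99 bp from the start, with a fold of 3.41. The catalytic subunits Psmb5, Psmb6 and Psmb7, which carry the chymotrypsin-like, caspase-like and trypsin-like activities, were called in 6 h replicate 2 only, with a fold of 5.27, 5.29 and 6.89. Psmb4 likewise was called there alone, at 6.63. Psmb2 stood apart from the rest. Its fold was 6.59 in 0 h replicate 2 and reached 12.2 and 15.4 at 6 h, at the 75.1st and 73.6th percentiles, with all summits within 82 bp of a gene end.

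Psmb9 and its neighbour Psmb8 encode inducible catalytic subunits that replace constitutive ones in the immunoproteasome, which shapes peptides for presentation by MHC class I. Psmb9 was among the strongest members at both time points. Its fold was 15.0 and 19.7 in 0 h replicates 1 and 2, at the 94.9th and 98.9th percentiles, and 22.8 and 28.8 in 6 h replicates 1 and 2, at the 95.1st and 93.3rd percentiles. The pileup under these summits was 79, 92, 132 and 135 reads. Pileups here and below were not scaled for depth and are not levels to compare between libraries. The summits lay 160, 139, 150 and 165 bp upstream of the start, a span of few bases in the sequence printed above, which holds neither RUNX core. The same peaks lay within 1 kb of an end of Tap1, whose product carries peptides into the endoplasmic reticulum, so they cannot be given to Psmb9 alone.

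Psmb8 was called in the second replicate of each time point, with a fold of 8.44 at 0 h and 17.1 at 6 h, 516 and 472 bp upstream of its start and also near an end of Tap1. In 6 h replicate 1 the nearest summit lay 3069 bp away. Psmb10, a further inducible subunit, had a highest fold of 4.81 and 7.21 at 6 h, from peaks 718 bp apart that did not overlap. Replicate 1 had a further summit 21 bp from the start, with a fold of 4.44, beside that of replicate 2 at 34 bp. Psmb11 and Psma8, the subunits restricted to thymus and testis, had no peak in any library.

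Among the 6 ATPases of the 19S cap, Psmc1, Psmc2, Psmc3 and Psmc4 were called in both 6 h libraries, and Psmc5 and Psmc6 in none. No ATPase gene was called at 0 h. By the peaks at gene ends the highest was Psmc3, with a fold of 8.38 and 13.3, at the 47.8th and 65.2nd percentiles. Psmc2 had a fold of 7.17 and 11.7, with summits 180 and 109 bp upstream of its start, on either side of the RUNX core that lies 150 to 145 bp upstream. A further transcript start of Psmc2, 1472 bp inside the gene, had summits 144 and 169 bp away with a fold of 10.6 and 16.0. Psmc2 also shares its outer end with Dnajc2.

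The non-ATPase subunits of the cap held the member that ranked first at 6 h and a member called in every library. All 11 were called in at least 1 library at 6 h, and 8 of them in both. Psmd7, a lid subunit that pairs with the deubiquitinase PSMD14, ranked first of the 32 genes called in both 6 h libraries. It had a fold of 22.7 and 32.9, a mean percentile of 95.2, with pileups of 131 and 138 reads, and no 0 h peak within 10 kb. Psmd14 itself was called in 6 h replicate 2 only, at 9.99. Psmd12 was likewise called there only, and Psmd4, a ubiquitin receptor, in 6 h replicate 1 only.

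Psmd3, a lid subunit, was the other gene called in all 4 libraries. Its fold was 13.2 and 14.4 in 0 h replicates 1 and 2, at the 92.8th and 95.6th percentiles. At 6 h it was 9.79 in replicate 1, at the 60.8th percentile, and 24.9 in replicate 2, at the 90.5th. Read pileups were 53 and 56 in the 0 h libraries, at a local background of 3.10 and 2.97. They were 56 and 98 in the 6 h libraries, at a local background of 4.82 and 2.98. The summits lay between 247 and 307 bp outside the end of the gene with the lower coordinate, and no other annotated gene ended within 1 kb of them. Psmd3 has no entry in the promoter table, so its strand was not assigned.

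Psmd13, another lid subunit, was called in 0 h replicate 2, where its fold was 10.4, at the 85.0th percentile. The 6 h values were 12.3 and 16.0, at the 75.6th and 75.3rd percentiles. Reads piled up to 38 at 0 h and to 120 and 114 in the 6 h libraries. The summits lay 48, 81 and 86 bp upstream of the start, on either side of the RUNX core in capitals, 62 to 57 bp upstream. The same interval is an end of Sirt3. Psmd8 and Psmd11 had a fold of 5.07 and 10.4 and of 6.01 and 11.6 in 6 h replicates 1 and 2. Psmd1 and Psmd6 had 5.58 and 7.13 and 6.64 and 7.48. Psmd2, at 5.09 and 4.47, lay at the 7.52nd and 0.963rd percentiles.

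Of the 7 assembly chaperones, 5 were called in both 6 h libraries and none at 0 h. Psmd9, a chaperone of the 19S base, was the highest of them, with a fold of 9.73 and 17.5 and summits 117 and 118 bp inside the gene from its start. Psmd5 and Psmg1 lay below the 32nd percentile in both 6 h lists, at a fold of 7.14 and 7.69 and of 6.49 and 6.35. Psmg2 differed between the replicates, with a fold of 5.83 and 15.7, and shares its end with Cep76. Psmg4 had 9.28 and 7.71. Psmg3 was called in 6 h replicate 2 only, and Psmd10 in none.

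Of the activators, Psme1, Psme2, Psme3 and Psme4 were called in both 6 h libraries and none at 0 h. Psme4 encodes PA200, a large nuclear activator, and had a fold of 11.0 and 16.3 with summits 80 and 65 bp upstream of its start, near the ETS core in capitals above. Psme1 and Psme3 reached a fold of 7.97 and 10.2 and of 7.56 and 11.5. Psme2, which pairs with PSME1 in the interferon-inducible activator, had 4.86 and 8.80, at summits that also lay within 1 kb of Rnf31. Psme2b, a copy of Psme2 elsewhere in the genome, had no peak, and reads shared by such copies may have been lost or split, since the filter on multiple alignments is not given in the sources used here.

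Psmf1, which encodes the regulator PI31, was not called by the gene ends. Its transcript start in the promoter table lies 2889 bp inside the gene, and the 6 h libraries had summits 160 and 155 bp from it, with a fold of 7.12 and 7.35. It was singled out after its values were seen. Of the genes that share only the symbol, Psme3ip1 was among the highest at 6 h, with a fold of 18.7 and 22.4 at an interval shared with Rspry1, and Psmc3ip had 4.93 and 8.43. Leaving them out gave 30 of 49 genes called in both 6 h libraries, or 61.2%.

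Peaks at proteasome genes had a lower median percentile in the 6 h lists than peaks at other genes. The median fold percentile of the bound members was 28.8 in 6 h replicate 1 and 44.6 in replicate 2, against 53.8 and 56.1 at other bound protein-coding genes. With summits counted within 5 kb the medians were 47.0 and 54.9, against 58.7 and 61.7, and within 10 kb they were 54.9 and 65.2, against 62.4 and 66.0, so the gap narrowed from 1 kb to 10 kb. Within 500 bp the medians were 31.8 and 45.7, against 52.5 and 54.3, a smaller gap than at 1 kb. With ends that stand alone they were 28.8 and 22.4, against 54.1 and 55.1. The part of each list below the 25th percentile held 15 of 34 and 16 of 41 member peaks, or 44.1% and 39.0%, against 23.2% and 21.4% of the others. Ribosomal protein genes had medians of 31.6 and 44.5 and oxidative phosphorylation genes of 41.8 and 40.9. The median pileup at the members was 44 and 48 reads, against 53 and 55.5 at other genes, while the median local background was close in the groups, at 4.90 against 4.82 and at 3.73 against 3.73. At 0 h the few members called lay high, at medians of 93.9 for 2 genes and 76.8 for 6. The change in the mean median was −48.7 percentile points (exact permutation test, two-sided, p = 0.333), and ranks in lists of such different lengths show no change in binding.

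**Figure D3:**
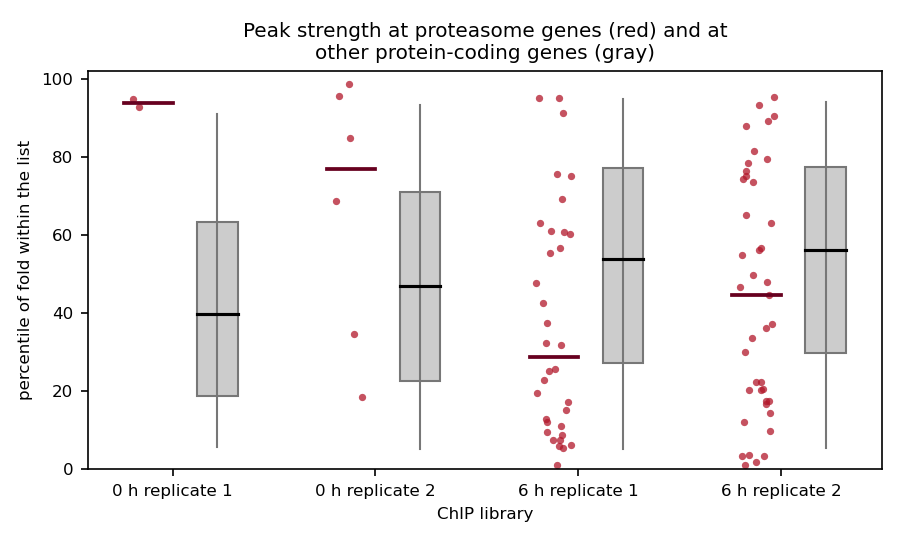
Percentile of fold within each library's own list (y axis) for the peaks at proteasome genes (red points, with their median as a red line) and at other protein-coding genes (gray box for the middle quartiles, black line for the median, whiskers from the 5th to the 95th percentile) in the 4 ChIP libraries (x axis). At 6 h the member medians of 28.8 and 44.6 lie under the other genes' 53.8 and 56.1.

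The peaks lay at the starts of the genes. A strand was available for 43 of the 51 members. Of the members with a strand, 27 of 28 bound in 6 h replicate 1 and 33 of 34 in replicate 2 had the counted peak at the start, or 96.4% and 97.1%, against 94.9% and 94.4% of other genes. The exception in both was Psma3. The summit was within 250 bp of the gene end in 28 of 34 and 35 of 41 members, or 82.4% and 85.4%, against 64.2% and 65.7% of other genes, and in 79.5% and 81.9% of ribosomal protein genes. The median distance was 124 and 118 bp. The limit of 1 kb cut through few peaks, since the farthest nearest summit counted lay 681 bp from an end, and the closest ones not counted lay at 1608 bp for Psmb1 in 0 h replicate 2 and at 2039 and 2052 bp for Psmc6 at 6 h.

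In the 32 members called in both 6 h libraries, the counted peaks of 30 overlapped, and the median gap between their summits was 49.5 bp, with 22 of them within 100 bp. Where a member was called at 0 h and at 6 h, its peaks overlapped in every case, with gaps of up to 434 bp for the broad Psma7 peak. At other genes 95.3% to 98.8% of such peaks overlapped, depending on the libraries. Between the 6 h replicates the peaks of 94.5% of 8128 other genes overlapped, against 93.8% of the members. The median gap at these other genes was 42 bp, with 6118 of them within 100 bp. A peak of 12 of 34 members in 6 h replicate 1 and of 11 of 41 in replicate 2 also lay within 1 kb of an end of another protein-coding gene, or 35.3% and 26.8%, against 28.3% and 26.4% of other bound genes. With only gene ends that stand alone, 21 of 45 members were called in both 6 h libraries, or 46.7%, against 28.0% of other genes.

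**Figure D4:**
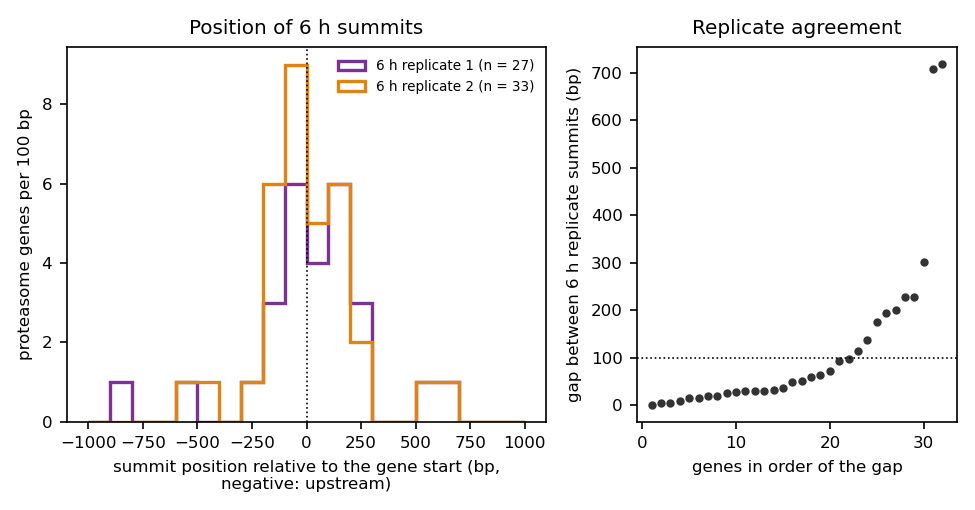
Left, number of proteasome genes per 100 bp (y axis) by the position of the 6 h summit relative to the gene start (x axis, bp, negative upstream), for the 27 and 33 genes with the peak at a start of known strand. Right, gap in bp between the summits of the 6 h replicates (y axis) for the 32 genes called in both, in order of the gap (x axis), with a dotted line at 100 bp. Most summits lie within 250 bp of the start, and 22 of the 32 gaps are within 100 bp, against 6118 of 8128 at other genes.

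The promoter windows were searched on both strands, from 250 bases before to 50 after the start, for 43 members and 17492 protein-coding genes. Summits inside a gene can lie beyond such a window. In 6 h replicates 1 and 2, 18 of 34 and 20 of 41 member summits lay inside the gene. At other genes 5226 of 8312 and 6185 of 9892 did. The shares below therefore describe promoter windows and not bound sites. A RUNX core, TGTGGT or TGCGGT, was found in 10 of the 43 member windows, or 23.3%, against 21.6% of all. It was found in 7 of the 27 member windows whose start was called in both 6 h libraries and in 2 of the 6 with no 6 h call. Over all genes the share was 22.6% at the starts called in both 6 h libraries and 21.7% at those called in neither. The cores taken singly went opposite ways, with TGTGGT at 11.5% of called and 18.4% of uncalled starts and TGCGGT, which holds a CG, at 12.2% and 3.96%. The median GC content of the called windows was 63.3%, against 49.3% for the uncalled, and its part in these shares was not tested.

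The ETS core CCGGAAG was in 15 of the 43 member windows, or 34.9%, against 11.9% of all protein-coding windows, at a median GC content of 57.3% and 56.3%. Over all genes it was in 20.9% of the starts called in both 6 h libraries and 4.59% of those called in neither. It was in 11 of the 27 member windows whose start was called in both 6 h libraries, among them those of Psmc2 and Psme4. Psmc3ip and Psme3ip1, which are not proteasome subunits, were also among these 11. The core was in 1 of the 6 windows with no 6 h call, that of Psmc6. The others were Psmd4, Psmd12 and Psmg3, each called in 1 of the 6 h libraries. CCAAT, the core bound by NF-Y, was in 37.2% of member and 39.2% of all windows. The antioxidant response core TGACNNNGC, through which NFE2L1 drives proteasome genes, was in 14.0% against 13.1%. GCGCATGC, the NRF1 core, was in 6.98% against 3.61%. The cyclic AMP response core TGACGTCA was in 0 of 43 member windows against 2.33% of all, and the AP-1 core TGANTCA was in 4.65% against 7.03%. The core AGATAA, of the GATA family, was in 6.98% against 9.94%, and CAAGGTCA, of the NR5A family, in 4.65% against 1.32%. The 2 member windows with CAAGGTCA were those of Psmb10 and Psmc3ip. A match is a description of the letters and not a bound site.

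Other genes of the ubiquitin-proteasome system were examined in a chosen list of 35. Of these, 34 were matched, all but Paaf1, and 29 of them, or 85.3%, had a peak in both 6 h libraries, against 37.3% of all protein-coding genes. In 0 h replicates 1 and 2, 3 and 8 of the 34 were bound, or 8.82% and 23.5%, against 1.58% and 8.04% of all. Those called in both 0 h libraries included Faf1, a cofactor of the segregase VCP, and Zfand5, whose product stimulates the proteasome. Zfand5 had a fold of 12.2 and 14.3 at 0 h and of 64.2 and 77.2 at 6 h, above the 99th percentile of both 6 h lists. Nfe2l1, the transcription factor that restores proteasome gene expression when the protease is blocked, had a fold of 7.69 in 0 h replicate 2 and of 15.4 and 18.5 at 6 h. Of the proteins that mature NFE2L1, Ngly1 reached 23.4 and 36.4 at 6 h and Ddi2 10.4 and 12.4. Pomp, which assembles the 20S core, and Adrm1 and Sem1, subunits of the cap outside the symbol rule, were called in both 6 h libraries at a fold of 7.56 and 8.85, of 6.64 and 11.1 and of 6.18 and 12.9. Uba1, the main ubiquitin-activating enzyme, and Ecpas had no peak in any library. Rps27a, a ubiquitin fusion gene, is also among the ribosomal protein genes above.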

How the data were processed

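The RUNX1 ChIP DNA was sequenced from 1 end in reads of 75 nt, per the labels. Per the submitters' processing notes, the tools were Bowtie2 2.2.5 and MACS2 and the genome was mm10; each ChIP library has a peak list of its own, whose name mentions an input, and the settings of the calls are not given in the sources used here. The deposited lists give each peak's fold enrichment over local background (a ratio), −log10 p-value and −log10 q-value. These are the authors' values and were used within a list. Whole-number pileups were solved from the deposited fold and −log10 p with a misfit of at most 0.005, which gave a solution for 100% of the peaks. Summits were matched to gene ends of NCBI RefSeq on GRCm38.p6 within 1 kb, and a gene took its peak of highest fold. Strand and sequences came from the RefSeq promoter table, in which 43 of 51 members matched. Ribosomal and oxidative phosphorylation genes were taken by symbol, without the Rps6k kinases. Time points were compared over libraries by exact permutation, with peaks and genes never used as replicates. Python 3.11.15, numpy 2.4.6, pandas 2.3.3 and scipy 1.17.1 were used, and the matching and the pileups were tested on simulated data. Genes with values were named where called in both 0 h libraries or 1 of them and for the 10 highest mean percentiles at 6 h; genes with 1 call at 6 h or none were named throughout, and other values follow role groups. Members and lists were chosen with earlier results of these data known. Alternatives changed the distance, the limit on q, the list length, what marks a peak, which ends count, the members and the replicates. Values of 1 gene of the ubiquitin-proteasome list are not reported here.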

Additional observations from a re-analysis of the deposited data

How the results depend on the processing

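The change in the share of bound proteasome genes reversed with equal lists of 948 peaks, to −2.94 points, and so did the change in their excess over other genes, to −2.87; the fold percentile could not be recomputed there, because 6 h replicate 2 then held no member. Every other alternative run kept the direction of these 3 changes, and none reached the usual threshold, which this design cannot reach. Leaving out a library gave 58.8 to 72.5 points for the share, 25.6 to 32.1 for the excess and −57.2 to −40.2 for the percentile. The percentile change, −48.7 as reported, was −30.5 with summits within 5 kb and −17.4 within 10 kb. Members called at 6 h in both libraries, 62.7% of 51, became 82.4% within 10 kb, 37.3% with a −log10 q of at least 20, 0% with equal lists and 46.7% with ends that stand alone, against 50.8%, 27.7%, 1.25% and 28.0% of other genes, and 66.7% to 80.4% with 1 library left. Those at 0 h were 3.92% to 11.8% with 1 library left. Exchanging labels only within a replicate number (replicate block) left the differences at 65.7, 28.8 and −48.7 with an exact permutation p of 0.5, the smallest it can give; the numbers pair nothing in the labels, and replicate 1 minus replicate 2 at 0 h and at 6 h correlated at −0.0597 over 21900 genes. The exclusion of Psme3ip1 and the use of transcript starts were chosen after seeing the data. The cause of these shifts was not tested. Calls in these lists began at pileups of about 17 to 20 reads, and the lowest −log10 p of a list was 9.01 to 9.18. The part of depth in this limit was not tested.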
